A study of Mus musculus with 8 samples.

Results

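Forkhead box (Fox) proteins are transcription factors that share a winged-helix DNA-binding domain, the forkhead, and differ in the tissues and signals that use them. Some are pioneer factors that open closed chromatin, and the FoxO proteins leave the nucleus when insulin and PI3K signaling activates AKT. In skin the family is best known for Foxn1, which is mutated in the nude mouse and drives hair keratinization, and for Foxq1, which is mutated in the satin mouse and shapes the hair shaft. Members here were the 38 forkhead genes whose array probes matched a RefSeq accession of a fixed list of Fox symbols, out of 36799 genes and other targets on the array.

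The study compared the back skin epidermis of newborn (P0) mice that lost EED, a core subunit of the Polycomb repressive complex PRC2, with that of control mice. PRC2 methylates lysine 27 of histone H3 and keeps many developmental regulators silent, and genes of transcription factor families such as this one are among its textbook targets. RNA of each mouse sample was hybridized to a 2-colour Agilent expression array against Universal Mouse Reference RNA, a commercial RNA pool used as the common reference. Values are log2 ratios of sample over reference, so a ratio orders the samples for 1 gene and does not order genes.

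The 4 EED cKO samples carried a floxed Eed gene deleted by K14-Cre, a recombinase driven by the keratin 14 promoter, which acts in epidermal stem cells and their progeny and not in dermal, vascular, immune or neural-crest-derived cells. The 4 control samples are labelled only as controls. All mice were P0 and of strain C57BL/6, none was treated, and the labels call the 4 samples of each genotype biological replicates. Epidermis was peeled from back skin after dispase, and its cells were freed with trypsin, so that the samples hold keratinocytes of interfollicular epidermis and hair follicles together with any other cells that came along.

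Before the forkhead genes, the arrays themselves were checked. Eed ranged from −2.04 to −1.66 in EED cKO and from −0.46 to −0.18 in control, a difference of −1.46 ± 0.09 (SE, limma adjusted p = 2.11e-05). Where the Eed probe lies relative to the deleted part of the gene is not given in the sources used here. Between 51.5% and 65.5% of spots per array gave a sample signal well above background, with 0 saturated spots. The keratinocyte markers with a tested probe, 9 of 10, had a mean level of 3.60 to 3.96 on the EED cKO arrays and 3.58 to 4.21 on the control arrays. Of these 9, Itga6 (−0.74), Trp63 (−0.59) and Itgb4 (−0.51) were lower at a limma adjusted p under 0.05, 0 were higher and 6 did not pass. Of 4 Y-linked probes, 3 were well above background on control replicates 2 and 3 and 0 or 1 on the other 6 arrays, so these 2 control arrays differ from the rest in RNA from the Y chromosome. Each genotype filled its own row of the single slide, so slide row and genotype cannot be told apart.

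A gene was tested if 3 or more arrays of either genotype, out of 4, showed a sample-channel signal of its probe well above background. By this rule 22 of the 38 forkhead genes were tested and 16 were not, while 23202 of all 36799 genes and targets were tested. Of the 22, 20 were well above background on all 8 arrays. The other 2, Foxa1 and Foxd2, passed only through the EED cKO arrays. Of the 16 that were not tested, 6 were well above background on no array (Foxa3, Foxb1, Foxd1, Foxf2, Foxj1 and Foxp2) and 10 on some arrays. The reference channel was well above background on all 8 arrays for 9 of these 16 genes, and on none for Foxd3 and Foxp2.

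**Figure D1:**
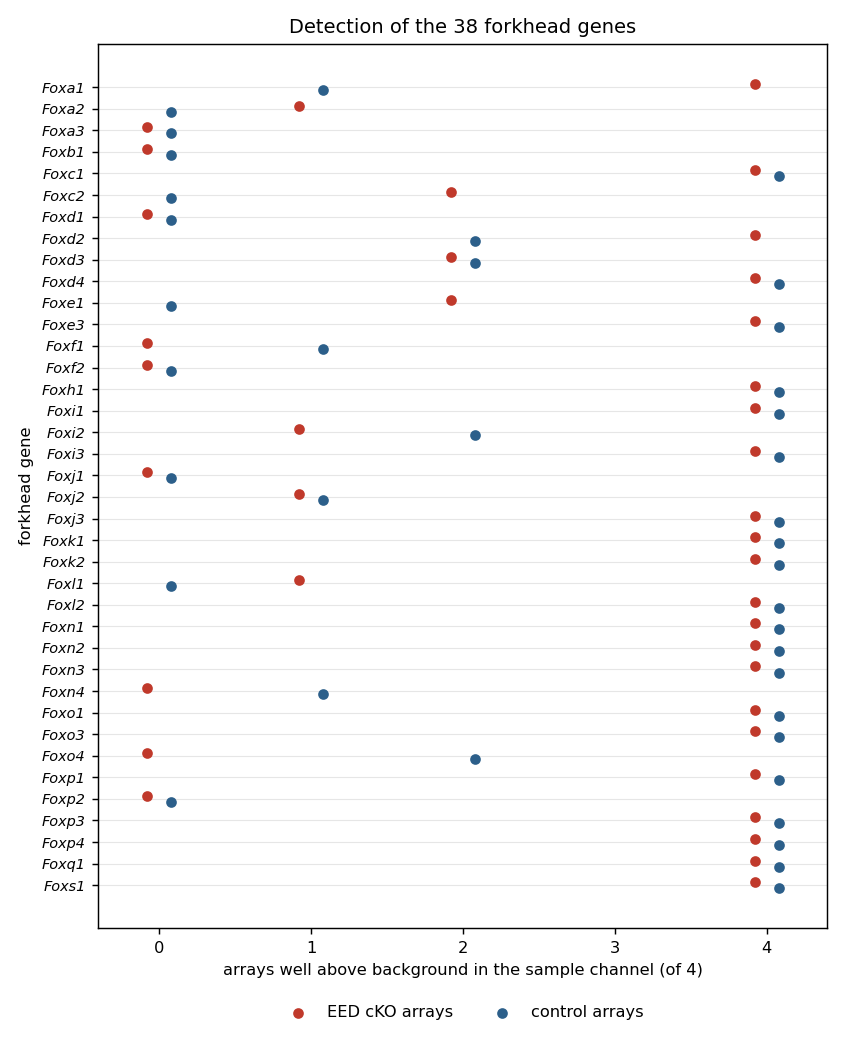
For each of the 38 forkhead genes, the plot shows how many of the 4 EED cKO arrays (red) and of the 4 control arrays (blue) gave a sample-channel signal well above background. Foxa1 and Foxd2 sit at 4 EED cKO arrays but at 1 and 2 control arrays, and 20 genes sit at 4 for both genotypes.

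Every EED cKO array lay above every control array for Foxc1 and Foxd2, and below every control array for Foxj3. Foxd2 was tested only because of its EED cKO arrays, so its direction was set by the filter. The upstream sequences of these genes are shown because CpG-dense promoters are where PRC2 is known to bind in mammalian cells. Each is the 250 bases before the RefSeq gene start in GRCm38.p6, written 5′ to 3′ on the gene's strand, at chr13:31806396-31806645 (plus strand), chr4:114908899-114909148 (minus strand) and chr4:119539411-119539660 (plus strand). Capitals mark CpG dinucleotides.
Foxc1: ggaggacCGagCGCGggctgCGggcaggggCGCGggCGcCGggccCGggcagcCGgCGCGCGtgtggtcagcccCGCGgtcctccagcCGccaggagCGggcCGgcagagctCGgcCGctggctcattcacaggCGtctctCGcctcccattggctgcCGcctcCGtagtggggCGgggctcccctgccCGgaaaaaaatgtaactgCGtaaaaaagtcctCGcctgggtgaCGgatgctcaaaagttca
Foxd2: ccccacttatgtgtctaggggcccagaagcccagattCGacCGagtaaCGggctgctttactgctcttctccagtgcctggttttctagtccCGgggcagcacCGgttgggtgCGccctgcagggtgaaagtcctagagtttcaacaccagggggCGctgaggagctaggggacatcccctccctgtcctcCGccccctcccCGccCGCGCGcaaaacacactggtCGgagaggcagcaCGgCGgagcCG
Foxj3: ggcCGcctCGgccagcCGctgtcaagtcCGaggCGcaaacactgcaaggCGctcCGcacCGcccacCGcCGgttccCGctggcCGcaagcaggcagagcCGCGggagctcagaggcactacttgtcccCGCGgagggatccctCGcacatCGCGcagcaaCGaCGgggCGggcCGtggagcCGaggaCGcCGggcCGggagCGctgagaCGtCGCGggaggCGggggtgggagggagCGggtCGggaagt

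The Foxc1 stretch held 29 CpGs, the Foxd2 stretch 16 and the Foxj3 stretch 34, and the stretches of Foxa1, which rose, and Foxn3, which fell, held 21 and 5. A RefSeq upstream sequence was at hand for 25 of the 38 forkhead genes, with a median of 18 CpGs in 250 bases and a range from 3 (Foxi2) to 48 (Foxk2). Over the 27025 genes with such a sequence the median was 6, and over the 11868 of them that were tested on the arrays it was 14. The forkhead recognition sequence TGTTTAC, read on both strands, was in the Foxa1 stretch alone, 4.0% of the 25, against 3.09% of all 27025 sequences. A variant, TGTTTGC, was in those of Foxj3 and Foxp1, 8.0% against 4.3%. These matches describe letters in a window and are not binding sites shown by the data.

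Of the 22 tested forkhead genes, 4 were higher in EED cKO epidermis (Foxc1, Foxq1, Foxd2 and Foxa1), 4 were lower (Foxk1, Foxj3, Foxn3 and Foxn2) and 14 did not pass the test, which was limma with an adjusted p under 0.05 over all 23202 genes. That is 18.2% in each direction, while of all genes tested 11.8% were higher and 9.92% were lower. With loess replaced by median centring, calls over all genes shifted from 2749 higher and 2302 lower to 1026 higher and 1539 lower, and forkhead calls were 3 in each direction. No forkhead gene reached 2-fold in either direction, while of all genes tested 1.22% did, 1.11% higher and 0.108% lower. The median log2 fold change of the 22 genes was −0.01, and that of all genes tested was 0.02. Among the 20 genes well above background on all arrays, 2 were higher, 4 lower and 14 did not pass. With the test limited to the 20135 genes and targets that met this filter, 12.1% were higher and 11.4% lower. All arrays of one genotype lay above those of the other for 4 genes with EED cKO above and for 1 gene with EED cKO below, against 9.69% and 7.48% of all genes tested.

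**Figure D2:**
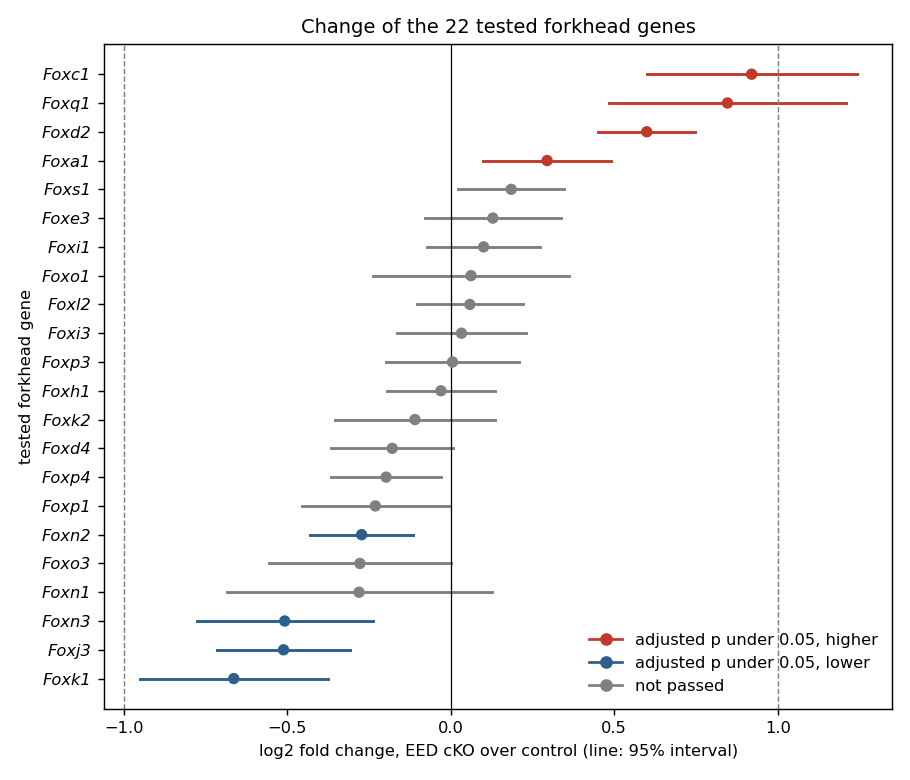
Log2 fold change of EED cKO over control for the 22 tested forkhead genes, with the 95% interval of the limma fit as a line and dashed lines at a 2-fold change. Foxc1 and Foxq1 lie highest and Foxk1 lowest, and no point lies beyond a dashed line.

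Foxc1, a regulator of eye and vessel development that also keeps hair follicle stem cells quiescent, had the largest rise on the scale used here, though the smallest of the 4 on the Feature Extraction scale given below. Its log2 ratio was −1.63, −1.10, −1.21 and −1.19 on the 4 EED cKO arrays and −2.32, −1.93, −2.07 and −2.49 on the 4 control arrays. Every EED cKO array lay above every control array. The difference was 0.92 ± 0.14 on the log2 scale (SE, n = 4 per genotype), which is 1.89-fold, with a limma adjusted p of 0.00286. The exact two-sided permutation test over the 8 arrays gave p = 0.0286, the smallest value that 4 against 4 allows. Within the arrays with the sample in Cy3 the difference was 0.77, and within those with the sample in Cy5 it was 1.07. In a bulk sample, a change in the share of cells that express a gene and a change of RNA per cell cannot be told apart.

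Foxq1, the gene of the satin coat mutant, lies beside Foxf2 and Foxc1 on chromosome 13. Its log2 ratio was 0.58, 1.32, 0.99 and 0.74 on the EED cKO arrays and −0.14, 0.24, 0.26 and −0.12 on the control arrays. The genotypes did not overlap, although the EED cKO arrays spread widely. The difference was 0.85 ± 0.16 (limma adjusted p = 0.00693), or 1.80-fold, and all 4 pairs of arrays with the same replicate number showed it, by 0.72 to 1.08.

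Foxd2, a forkhead gene known from kidney and limb mesenchyme, had the smallest spread of the genes that rose. Its log2 ratio was 0.01, −0.08, −0.03 and −0.09 on the EED cKO arrays and −0.51, −0.77, −0.62 and −0.67 on the control arrays. The genotypes were clearly separate. All 4 EED cKO arrays but only 2 control arrays showed the probe well above background, and the difference of 0.60 ± 0.07 (limma adjusted p = 0.000662) was measured partly against spots near background.

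Foxa1, a pioneer factor of endodermal and glandular tissues, also passed, with the smallest rise of the 4 on the scale used here. Its log2 ratio was −1.40, −1.84, −1.26 and −1.48 on the EED cKO arrays and −1.60, −1.97, −1.65 and −1.94 on the control arrays, with overlap between the genotypes. The probe was well above background on 4 EED cKO arrays and 1 control array. The difference was 0.29 ± 0.09 (limma adjusted p = 0.0395), and this call was lost when any single array other than EED cKO replicate 2 was left out, with adjusted p of 0.0575 to 0.112. Since Foxa1 and Foxd2 were tested only because of their EED cKO arrays, their direction was set by the filter.

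**Figure D3:**
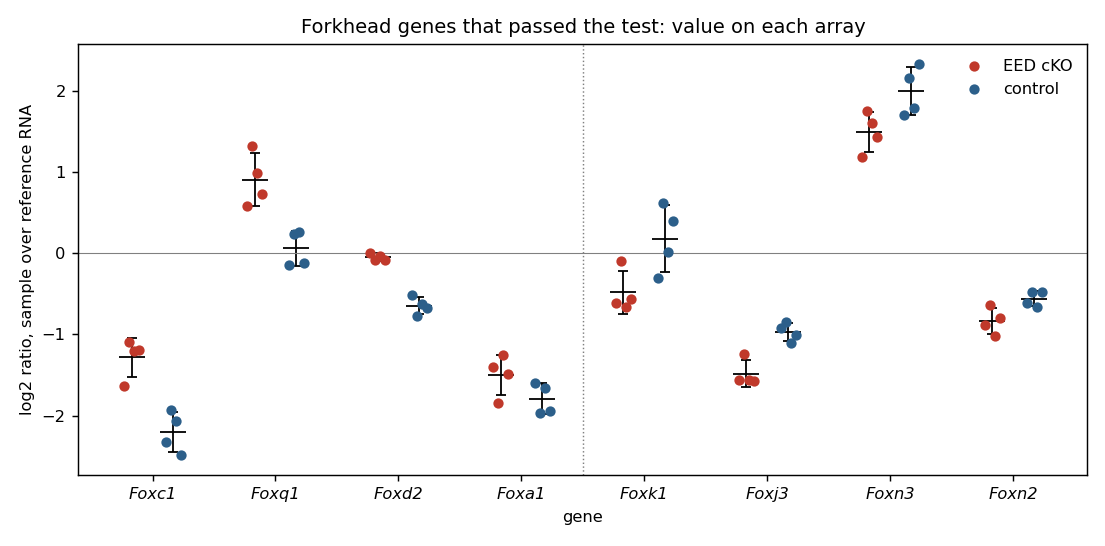
Log2 ratio of sample over reference on each of the 4 EED cKO arrays (red) and 4 control arrays (blue) for the 8 forkhead genes that passed the test, with the mean and SD of each genotype in black. The genotypes are separate for Foxc1, Foxq1, Foxd2 and Foxj3 and overlap for Foxa1, Foxk1, Foxn3 and Foxn2. Heights of different genes cannot be compared.

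Foxk1, Foxj3, Foxn3 and Foxn2 were lower in EED cKO. Foxk1, which represses autophagy and atrophy genes in fed cells, had the largest fall. Its log2 ratio was −0.61, −0.09, −0.67 and −0.56 on the EED cKO arrays and −0.31, 0.62, 0.01 and 0.40 on the control arrays. EED cKO replicate 2 and control replicate 1 overlapped, but within each replicate number the EED cKO array was lower, by 0.30 to 0.96. The fit, which takes the dye into account, gave a difference of −0.66 ± 0.13 (limma adjusted p = 0.00735), and without the dye term the adjusted p was 0.0634. Its closest relative Foxk2 differed by −0.11 ± 0.11 (limma adjusted p = 0.517).

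Foxj3, an activator of Mef2c studied in muscle and in spermatogenesis, was the gene for which all EED cKO arrays lay below all control arrays. The values were −1.56, −1.24, −1.57 and −1.57 in EED cKO and −0.92, −0.85, −1.11 and −1.01 in control. EED cKO replicate 2 stood apart from the other 3 EED cKO arrays, toward the control level. The difference was −0.51 ± 0.09 (limma adjusted p = 0.00498; exact permutation p = 0.0286), with −0.55 within Cy3 arrays and −0.48 within Cy5 arrays.

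Foxn3, a transcriptional repressor tied to the DNA damage checkpoint, had log2 ratios of 1.18, 1.75, 1.61 and 1.43 on the EED cKO arrays and 1.71, 2.16, 1.79 and 2.34 on the control arrays. Only EED cKO replicate 2 reached the control range. The difference was −0.51 ± 0.12 (limma adjusted p = 0.0166), and without EED cKO replicate 4 it missed the threshold (−0.41, adjusted p = 0.0504). Foxn2, its less studied relative, had values of −0.88, −0.63, −1.02 and −0.79 in EED cKO and −0.61, −0.47, −0.66 and −0.48 in control. The ranges overlapped slightly, the difference was −0.27 ± 0.07 (limma adjusted p = 0.0235), and leaving out EED cKO replicate 3, EED cKO replicate 4 or control replicate 2 ended the call (adjusted p 0.0633 to 0.0773). Across the 4 genes that fell, leaving out EED cKO replicate 4 reduced the number of lower calls to 2.

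The size of these changes differed between processing scales. The background correction used here adds an offset before the logarithm, which draws ratios of dim spots toward 0. With the log ratio that Agilent Feature Extraction computed with its own background subtraction and its own dye normalization in place of loess, the 4 genes that were higher all passed 2-fold. Foxc1 was then 2.29-fold and Foxq1 2.62-fold higher. The fitted log2 fold changes of Foxd2 (2.57) and Foxa1 (2.45) set EED cKO against control spots of which 2 of 4 and 3 of 4 were not well above background, and they do not measure the size of those rises. The 4 genes that fell had log2 fold changes between −0.79 for Foxk1 and −0.49 for Foxj3 on that scale. The 2 genes with the widest gap between the scales were those with control spots near background.

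**Figure D4:**
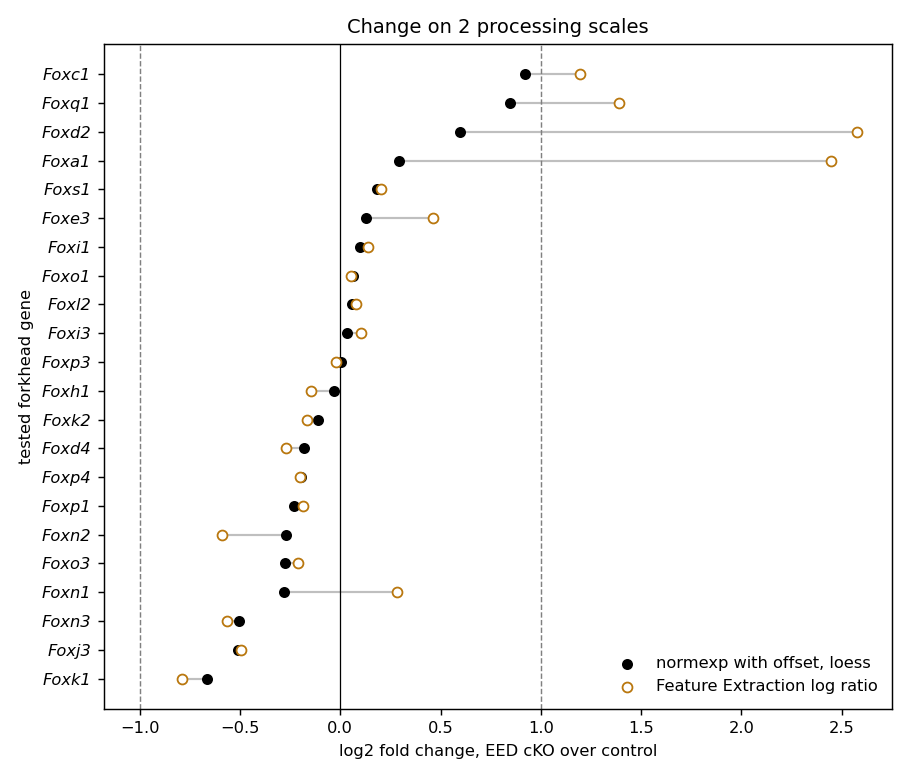
Log2 fold change of EED cKO over control for the 22 tested forkhead genes with the normexp correction and loess (filled) and with the Feature Extraction log ratio (open), with dashed lines at 2-fold. Foxd2 and Foxa1 move from 0.60 and 0.29 to 2.57 and 2.45, and Foxn1 crosses 0.

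Forkhead genes with a known part in skin and hair did not all pass the test. Foxn1 had log2 ratios of 1.18, 1.53, 0.91 and 1.02 in EED cKO and 0.80, 2.00, 1.42 and 1.55 in control. The genotypes overlapped widely, and the control arrays alone spanned more than the difference of −0.28 ± 0.18 (limma adjusted p = 0.300; 95% interval −0.69 to 0.12). The reference channel was well above background on only 3 of 8 arrays for Foxn1, and on the Feature Extraction scale the difference was 0.28, so no direction can be given.

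Foxi3, which is mutated in hairless dog breeds and acts in ectodermal placodes, had values of 0.21, 0.55, 0.48 and 0.59 in EED cKO and 0.17, 0.68, 0.36 and 0.48 in control. The genotypes covered the same range. The difference was 0.03 ± 0.09 (limma adjusted p = 0.828), with a 95% interval from −0.16 to 0.23. Foxe1, a thyroid and hair follicle factor, was well above background on 2 EED cKO arrays and 0 control arrays, with values of 0.25, 0.11, 0.25 and −0.11 in EED cKO and 0.14, 0.03, 0.01 and 0.00 in control. It was too dim for a test. Its mean log2 sample signal was 6.15 in EED cKO and 6.11 in control, the log2 ratios of the genotypes overlapped, and no change can be stated.

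The FoxO genes carry the response to insulin and growth factor signaling. Foxo1 had log2 ratios of −0.76, −0.93, −0.63 and −0.93 in EED cKO and −1.06, −0.48, −1.04 and −0.93 in control. The genotypes overlapped, and the dyes disagreed in direction, with 0.35 within Cy3 arrays and −0.22 within Cy5 arrays. The pooled difference was 0.06 ± 0.13 (limma adjusted p = 0.783), and a second Foxo1 probe gave −0.03. Foxo3 had values of 0.44, 0.85, 0.22 and 0.40 in EED cKO and 0.62, 0.94, 0.84 and 0.63 in control. It was lower in each of the 4 replicate pairs, by 0.09 to 0.62, but the difference of −0.28 ± 0.12 missed the threshold (limma adjusted p = 0.140), and passed it only without EED cKO replicate 2 (adjusted p = 0.0381). The brighter Foxo4 probe was well above background on 0 EED cKO and 2 control arrays, with log2 ratios of 0.05, −0.08, −0.03 and −0.16 in EED cKO and 0.16, 0.17, 0.09 and −0.12 in control. The genotypes overlapped, a second probe was well above background on 2 EED cKO arrays and 1 control array, and Foxo4 was not tested.

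The remaining 10 tested genes lay between −0.23 and 0.18 on the log2 scale. Foxs1, known from pericytes and sensory neurons, had values of −0.84, −0.91, −0.88 and −0.76 in EED cKO and −0.92, −1.13, −1.01 and −1.07 in control. The genotypes did not overlap, yet the difference of 0.18 ± 0.07 did not pass over all genes (limma adjusted p = 0.0966). Foxp4, a lung and gut factor, differed by −0.20 ± 0.07 (limma adjusted p = 0.0886), and its other probes gave −0.18 and −0.05. Foxp1, which acts in B cell and hair follicle stem cell regulation, differed by −0.23 ± 0.10 (limma adjusted p = 0.130), and its other probes gave −0.07 and 0.05. Foxp3, the regulator of regulatory T cells, differed by little between the genotypes (0.01 ± 0.09, 95% interval −0.20 to 0.21). Of 7 tested T cell and leukocyte markers Cd3e and Cd4 rose, Ikzf2 fell and 4 did not pass, while of all genes tested 11.8% were higher and 9.92% lower. Ikzf2 was well above background on 2 EED cKO and 4 control arrays, so its direction was set by the filter. The lens factor Foxe3, the ionocyte factor Foxi1, the Nodal pathway partner Foxh1, the ovarian and eyelid factor Foxl2, Foxd4 and Foxk2 had differences from −0.18 to 0.13, and none passed.

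Among the genes that were not tested, Foxc2, a factor of lymphatic vessels, was well above background on 2 EED cKO arrays and 0 control arrays. Its log2 ratios were −2.36, −2.62, −2.39 and −2.22 in EED cKO and −2.42, −2.97, −2.65 and −2.81 in control, which overlap. Its mean log2 sample signal was 6.54 in EED cKO and 6.24 in control, and with so dim a probe no change can be stated. Foxd3, a neural crest factor, was well above background on 2 arrays of each genotype. The endodermal factors Foxa2 and Foxa3, the mesenchymal factors Foxf1, Foxf2 and Foxl1, the motile cilia factor Foxj1, and Foxb1, Foxd1, Foxi2, Foxj2, Foxn4 and Foxp2 were each well above background on at most 2 arrays of a genotype, so no change can be stated for them.

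Several forkhead genes lie side by side in the genome. On chromosome 13, Foxq1, Foxf2 and Foxc1 are consecutive genes in the GRCm38.p6 annotation, and the outer 2 were higher in EED cKO while Foxf2 between them was well above background on no array. Beyond Foxc1, Gmds was also higher (0.41 ± 0.08, limma adjusted p = 0.00861), and on the far side of Foxq1, Exoc2 was lower (−0.34 ± 0.08, adjusted p = 0.0153). On chromosome 4, Foxd2 and Foxe3 are consecutive. Foxe3 differed by too little to pass (0.13 ± 0.09, limma adjusted p = 0.357), while Trabd2b on the other side of Foxd2 was higher (0.54 ± 0.08, adjusted p = 0.00237). Of the 27 genes that are no forkhead members and lie within 2 places of the 8 genes that passed, 19 were tested, 4 were higher and 2 lower, against 11.8% and 9.92% of all genes tested.

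Marker RNAs of other cell populations also differed between the genotypes. In bulk samples a changed share of cells and changed RNA per cell cannot be told apart. Counts are to be read against the 11.8% of all genes tested that were higher and the 9.92% that were lower. Of 8 Merkel cell markers 7 rose, and the mean level of the list was −0.78 to −0.63 on the EED cKO arrays and −1.41 to −1.23 on the control arrays. Isl1, Atoh1 and Sox2 were well above background on 4 EED cKO arrays each and on 2, 2 and 0 control arrays. They were tested only through the EED cKO arrays, so their direction was set by the filter, and they enter the mean. The endothelial markers with a tested probe, 5 of 9, had a mean level of −0.24 to 0.00 in EED cKO and −0.68 to −0.37 in control, and Pecam1 (0.89 ± 0.15, limma adjusted p = 0.00389) and Kdr passed the test. The mean level of the adipocyte markers, 3 of 5 tested, was also higher on all EED cKO arrays. Pparg and Fabp4 passed the test, Fabp4 with overlap between the genotypes, and Plin1 did not pass. Plin1 and the endothelial marker Flt1 were tested only through their EED cKO arrays, so each of these 2 means holds a marker that the filter let in by that genotype. The mean level of the hair placode and germ markers, 10 of 10 tested, was lower, at 1.87 to 2.05 against 2.10 to 2.59. Of these 10, 6 were lower, 1 was higher (Sox9, 0.52 ± 0.10, limma adjusted p = 0.00831) and 3 did not pass. For dermal fibroblasts (8 of 10 tested), smooth muscle and pericytes (3 of 7), Schwann cells (6 of 7), melanocytes (7 of 7), T cells and other leukocytes (7 of 10), Langerhans cells (6 of 7), dermal papilla (4 of 8), skeletal muscle (3 of 7) and erythroid cells (2 of 6), the mean levels overlapped. The part of these populations in the values of the forkhead genes was not tested.

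Genes linked to forkhead factors by general knowledge were then counted by list, to be read against the 11.8% of all genes tested that were higher and the 9.92% that were lower. Of 31 tested regulators of FoxO proteins, 11 were lower, 2 higher and 18 did not pass, with a median log2 fold change of −0.14. The list joins the insulin, PI3K and AKT pathway with other regulators of FoxO proteins. Usp7, Ep300 and Sirt1 among the lower genes, and Stk3 among the higher, are such other regulators. Among those that fell were Pik3r1, the regulatory subunit of PI3K, which fell by 0.73 (SE 0.09, limma adjusted p = 0.00101), and Insr, the insulin receptor, which fell by 0.39 (SE 0.09, adjusted p = 0.0134). The kinases Stk3 (0.39) and Sgk1 (0.51), which phosphorylate FoxO proteins, were the 2 that rose. The number of lower genes in this list was 2 without control replicate 2, 4, 6 and 7 without EED cKO replicates 4, 1 and 3, and 2 with Y-linked RNA as a covariate. It was 4 with median centring and 4 without the dye term, and leaving out 1 array left 1 to 3 higher genes. Lower calls over all genes fell as well, from 2302 to 1132 without control replicate 2 and to 1047 with the covariate.

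Of 33 tested target genes of FoxO proteins, 4 were higher, 5 lower and 24 did not pass, with a median of −0.13. This list includes Foxo1 and Foxo3 themselves and shares Irs2 and the lower gene Insr with the list of regulators, so the lists are not independent. Cdkn2b, which encodes the cell cycle inhibitor p15, was the only one past 2-fold. Its log2 ratios were 0.78, 0.64, 0.88 and 0.90 in EED cKO and −0.50, −0.41, −0.28 and −0.78 in control, fully separate, a difference of 1.29 ± 0.11 (limma adjusted p = 0.000118). Among the other targets Gadd45a, Sesn2 and Pik3ip1 were higher by 0.29 to 0.39, and Txnip and Ulk1 were lower by −0.61 and −0.59. With Y-linked RNA as a covariate the list held 5 higher genes and 1 lower gene. Without control replicate 2 it held 4 and 2, and without EED cKO replicate 3 it held 1 and 5. On the Feature Extraction scale it held 1 and 5, and with median centring 1 and 6.

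Of 18 tested hair keratin and hair differentiation genes, the programme that Foxn1 is known to act in, 5 were higher, 1 lower and 12 did not pass. Krt27, an inner root sheath keratin, was 2.51-fold higher but overlapped between genotypes (1.33 ± 0.41, limma adjusted p = 0.0440). Tchh, trichohyalin, and Krt72 were higher by 0.94 and 0.93, and Lef1, the Wnt effector of follicle matrix cells, fell by 0.76. Lef1 is also one of the lower hair placode and germ markers given above, so these lists are not independent. The median of this list was 0.09, but −0.07 with median centring and −0.03 when probes had to be well above background on all 8 arrays. With median centring 0 were higher and 1 lower. The count of higher genes was 2 or 3 when any 1 array other than control replicate 3 was left out, and 6 without control replicate 3.

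Of 17 tested motile cilia genes, the programme of Foxj1, 3 were higher (Ccno, Rsph9 and Rsph1, by 0.25 to 0.47), 1 was lower (Drc1, −0.70) and 13 did not pass, with a median of 0.12. Ccno and Rsph1 were well above background on 4 EED cKO arrays and 2 control arrays and so were tested only through the EED cKO arrays. With the replicate number as a block 5 were higher, while 1 was higher when probes had to be well above background on all 8 arrays, 1 with median centring and 1 on the arrays without Y-linked RNA. Foxj1 itself was well above background on no array.

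**Figure D5:**
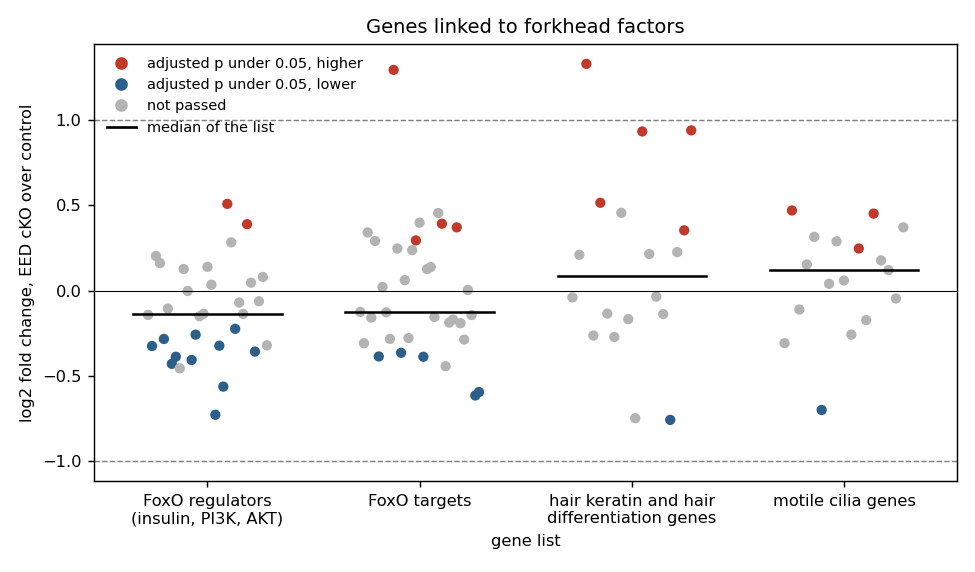
Log2 fold change of EED cKO over control for each tested gene of 4 lists linked to forkhead factors, with genes that passed the test in red (higher) or blue (lower), other genes in grey and the median of each list as a black line. The regulators of FoxO proteins hold 11 blue points and 2 red ones, and 1 gene each of the FoxO targets and of the hair genes lies above the dashed 2-fold line.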

How the data were processed

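RNA of P0 back skin epidermis from 4 EED cKO and 4 control samples was measured on 8 Agilent arrays, with the sample in Cy3 on replicates 1 and 3 and in Cy5 on replicates 2 and 4. Per the labels, the authors extracted the arrays with Feature Extraction 12.0.1.1 and deposited, per array, spot and background intensity and flags of signal above background, none of them normalized. They also deposited a log10 ratio of red over green that the software computed after background subtraction and dye normalization. A deposited table of log2 ratios differed from the log2 ratio of the processed signals by at most 7.33e-06 on probes with 1 spot.

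Median spot intensity was corrected with normexp (offset 50), since the columns used hold medians. Outlier spots and control spots were left out, arrays were normalized by loess, and ratios were turned to sample over reference. Probes were named through RefSeq accessions of GRCm38.p6, which matched 28026 of 29796. The array was designed on an older build, so positions are those of RefSeq and not of probes. The probe with the highest mean sample signal stood for its gene. The genotype effect was fitted with limma 3.58.1 in R 4.3.3 (genotype plus dye) and Benjamini-Hochberg adjustment over 23202 genes and targets, with 19 missing values left out. An exact permutation test of the 8 arrays was run per gene. The steps were tested on simulated data.

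The members, gene lists and tests were chosen with earlier results of these data known. Named were forkhead genes that passed, those known in skin or hair, those detected on 2 or more arrays more in a genotype, and of each list the genes past 2-fold or up to 4 with the lowest adjusted p. Foxs1, Foxp1, Foxp3, Foxp4, the neighbouring genes and further list genes and markers were named after their values were seen. Some genes that the rule takes are not reported here.

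Same-numbered samples of the genotypes deviated together (correlations of deviations 0.49, 0.68, 0.33 and 0.36, and 0.13 and 0.45 with the dye removed), so the numbers were taken to pair them. The number also marks slide column and dye, so a pairing of samples and a shared slide column cannot be told apart. The main fit did not pair the samples. Alternatives were no background correction, the Feature Extraction and deposited ratios, median centring, Aquantile, other filters and probe rules, no dye term, an intensity trend, array weights, a replicate block, the methods' t-test, Y-linked RNA as a covariate, and each array left out. Leaving out both control arrays with Y-linked RNA was added after seeing the data.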

Additional observations from a re-analysis of the deposited data

Results flagged for a closer look

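In 3 of the 44 groups of 4 arrays over the 22 tested forkhead genes, 1 array lay far from the other 3 by Dixon's test at the 95% level, which sets the gap to the nearest array against the range of the 4. Chance gives this in about 1 in 20 groups. For Foxj3, EED cKO replicate 2 was the highest EED cKO array, with a gap of 0.959 of the range. For Foxi1, control replicate 2 was the highest control array (0.879). For Foxe3, EED cKO replicate 3 was the highest EED cKO array (0.850). Foxj3 passed the test with and without this array, and Foxi1 and Foxe3 did not pass.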

How the results depend on the processing

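Foxc1 kept its direction and call under every alternative run. Foxd2 did so where it was tested, but the filter of all 8 arrays removes it, so this says nothing about a direction that the filter set. Foxq1 and Foxj3 lost it only with the methods' t-test after Benjamini-Hochberg adjustment (adjusted p 0.0709 and 0.0509). The count of forkhead genes past 2-fold, 0 in the report, was 2 without background correction, 4 with the Feature Extraction ratio and with the deposited table, 2 with Y-linked RNA as a covariate, and 2 on the arrays without Y-linked RNA, a setting chosen after seeing the data. With 1 array left out it ranged from 0 to 1, the gene being Foxc1 without EED cKO replicate 1 or control replicate 2. The count of higher genes, 4, was 2 with the filter of all 8 arrays, which leaves 20 genes, and 2 with the adjusted t-test, and ranged from 3 to 4 with 1 array left out. The count of lower genes, 4, was 1 without the dye term, 0 with the adjusted t-test (5 at the methods' unadjusted threshold), 1 on the arrays without Y-linked RNA, and ranged from 2 to 5 with 1 array left out, 2 without EED cKO replicate 4. Foxk1 had an adjusted p of 0.0546 on the arrays without Y-linked RNA. With the replicate number as a block the counts were 0 past 2-fold, 4 higher and 4 lower, and the block changed no call of the forkhead genes. The cause of these shifts was not tested. With 4 arrays a genotype, and 16 forkhead genes too dim for a test, small changes of weakly expressed members were not detectable here.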

Other observations

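Outside the 38 genes, Foxo6 was lower in EED cKO (−0.62 ± 0.08, limma adjusted p = 0.00149), although the ranges overlapped. Foxm1, a regulator of mitosis, differed by −0.25 ± 0.10 (limma adjusted p = 0.0952) and Foxr1 by 0.19 ± 0.08 (adjusted p = 0.142), and neither passed.

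Probes of the antisense RNAs Foxd2os and Foxl2os were well above background on 2 EED cKO arrays each, and on 1 and 2 control arrays, and were not tested.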
